A study of Mus musculus with 6 samples.

Results

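The miRNAs described here are the mature products of the miR-10 and miR-196 genes, which lie inside the Hox gene clusters. They were chosen by name from the table of mature miRNAs, and all 6 of them (mmu-miR-10a-5p, mmu-miR-10a-3p, mmu-miR-10b-5p, mmu-miR-10b-3p, mmu-miR-196a-5p and mmu-miR-196b-5p, written below without the prefix for mouse) were listed among its 1546 entries. They were measured by small RNA sequencing in 3 liver samples of the NC group and 3 of the MAFLD group. The NC mice were C57BL/6 fed a normal diet, and the MAFLD mice were C57BL/6 in which the liver disease was induced with a high-fat diet. The study's methods describe male mice that started their diet at 8 weeks of age and stayed on it for 16 weeks, with 6 mice per diet. The labels name no transgene, mutation or drug in either group, and say neither that livers were pooled nor which mice were sampled.

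Hox genes encode transcription factors that set the identity of body regions along the head-to-tail axis, and their order along the chromosome matches the order of the regions they mark. The miR-10 and miR-196 genes sit between Hox genes and are largely transcribed with them, so their expression in adult tissue also follows body position. A miRNA lowers the output of mRNAs that pair with its seed, bases 2 to 8 from its 5′ end. The miR-196 family is known for directing cleavage of Hoxb8 mRNA, and miR-10b is known for its place in breast cancer metastasis.

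The mature sequences below come from RefSeq on GRCm38.p6, with the seed in capitals, and show that each family shares a seed between its 5p members while the 3p arms do not.
miR-10a-5p: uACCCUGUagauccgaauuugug
miR-10b-5p: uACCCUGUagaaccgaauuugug
miR-196a-5p: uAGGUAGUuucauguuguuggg
miR-196b-5p: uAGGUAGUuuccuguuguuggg
miR-10a-3p: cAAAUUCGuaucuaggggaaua
miR-10b-3p: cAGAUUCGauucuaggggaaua

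Counted from 1 at the 5′ end, miR-10a-5p and miR-10b-5p differ by the single substitution U12A, and miR-196a-5p and miR-196b-5p by A12C. Both substitutions lie outside the seed, so a read is told apart from its paralogue by 1 base. The 3p arms of miR-10a and miR-10b differ at 3 positions (A3G, U9A and A10U). Of the 1312 listed miRNAs with a RefSeq sequence, the miR-10 seed was held by miR-10a-5p and miR-10b-5p alone, and the miR-196 seed by miR-196a-5p and miR-196b-5p alone. The 7 bases of the miR-196 seed also occur in let-7a-5p, shifted by a base to positions 3 to 9.

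In GENCODE M21 on GRCm38, Mir10a lies on the plus strand at chr11:96317165-96317274, with Hoxb5 ending 11044 bp before it and Hoxb4 starting 993 bp after it. It overlaps no other annotated gene. Mir10b lies on the plus strand at chr2:74726070-74726137, in introns of annotated Hoxd4 and Hoxd3 transcripts. MiR-196a-5p has 2 genes of identical mature sequence. Mir196a-1 is intergenic at chr11:96265164-96265265 on the plus strand, 6192 bp before Hoxb9, in the same cluster as Mir10a. Mir196a-2 is at chr15:102973350-102973434 on the plus strand, between Hoxc10 and Hoxc9 and in an intron of a long Hoxc5 transcript. Mir196b is at chr6:52230081-52230165 on the minus strand, within Hoxa9, where it falls in an exon of 2 annotated transcripts and in an intron of another.

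The pairing of miR-196a-5p with Hoxb8 can be read in the reference transcript. The site in the Hoxb8 3′ UTR, at chr11:96284888-96284909 on the plus strand of GRCm38, is shown with its only departure from the full complement of miR-196a-5p in capitals.
Hoxb8 site: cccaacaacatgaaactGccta
It matches 21 of 22 bases, and the remaining base, opposite a U of the seed, can form a G:U wobble pair. This site thus does not hold the exact complement of the seed. The complement of the miR-196 seed, ACTACCT, was found on the sense strand of the 3′ UTR in 6.11% of 20996 genes, and that of the miR-10 seed, ACAGGGT, in 12.5%. The median 3′ UTR was 962 bases. These are matches of letters, and no mRNA was measured in these livers.

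The values are CPM, reads scaled to the same total over all listed miRNAs in every library, and the read counts behind them were recovered as whole numbers. The NC libraries held between 1336935 and 2549598 such reads and the MAFLD libraries between 1534569 and 4685712. The hepatocyte list (miR-122, miR-192, miR-194 and miR-148a-3p) summed to between 644087 and 816441 CPM, most of it miR-148a-3p. Of the other markers, miR-122-5p lay between 42159 CPM (NC replicate 1) and 85150 CPM (NC replicate 3). MiR-192-5p lay between 58194 CPM (NC replicate 1) and 97878 CPM (MAFLD replicate 1). Both were thus present in every library, each of which is labelled liver. MiR-148a-3p alone took between 46.8% and 71.4% of the reads of a library, with 71.4% in NC replicate 1 and 63.3% in NC replicate 2. These 2 libraries also held more of the neuronal list (469 and 758 CPM, against at most 70.4 CPM in the others). NC replicate 3 correlated at r = 0.966 and r = 0.969 with MAFLD replicates 1 and 2 across miRNAs on the log2 scale, and at 0.951 and 0.941 with NC replicates 1 and 2. The pancreas list stayed at or below 9.77 CPM.

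MiR-10a-5p was the dominant Hox-locus miRNA in every liver, and its level was higher in each MAFLD liver than in each NC liver. NC replicates 1, 2 and 3 had 3441, 3612 and 4713 CPM, while MAFLD replicates 1, 2 and 3 had 5849.7, 5870.4 and 5566 CPM. The groups did not overlap, and on this scale the MAFLD livers lay closer together than the NC livers. It ranked between position 14 and position 19 of all miRNAs in each library. It averaged 3922 ± 690.3 CPM (SD, n = 3) on the normal diet and 5762 ± 170.2 CPM (SD, n = 3) on the high-fat diet, 1.47 times as much. The highest upper bound of a 95% Wilson interval in an NC liver was 4831 CPM, and the lowest lower bound in a MAFLD liver was 5449 CPM. These intervals cover counting error only.

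The difference in miR-10a-5p did not pass the test across all miRNAs. The log2 fold change on the log2(CPM + 1) scale was 0.57 (standard error 0.27, 95% interval −0.015 to 1.15). In limma its p was 0.0556 before and 0.284 after Benjamini-Hochberg adjustment. Permuting the 6 libraries gave an exact two-sided p = 0.1, and no smaller value is possible with 3 per group. Of the 6 members, 3 reached the mean of 1 CPM needed for testing, and 0 of these 3 passed an adjusted p of 0.05 or an unadjusted p of 0.05. Over all 501 miRNAs tested, 1 passed the adjusted p (0.2%), and 90 had an unadjusted p under 0.05 (18.0%, and 13.4% when only those higher in MAFLD are taken). DESeq2 and edgeR also called 0 members, while over the 501 miRNAs DESeq2 called 28 and edgeR 1. MAFLD livers lay wholly above NC livers for 15.2% of the 501 miRNAs and wholly below them for 4.19%, so such a gap was common. The median log2 fold change of all 501 was 0.43, and that of miR-10a-5p was at position 207 from the top.

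**Figure D1:**
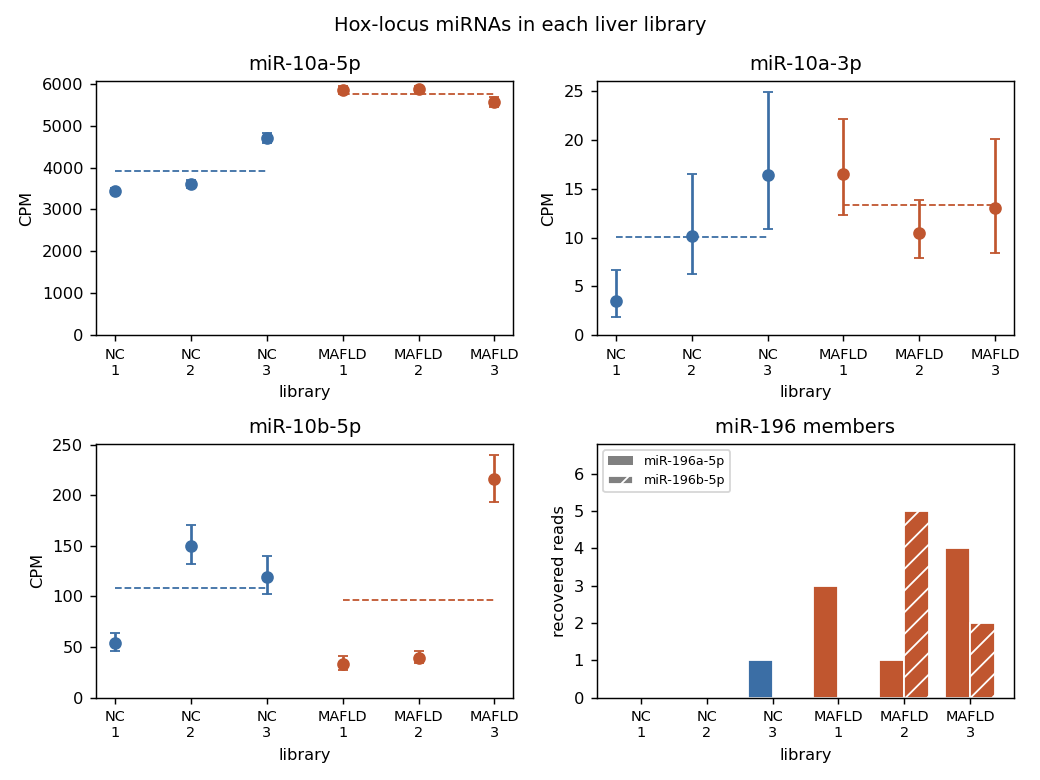
Each point is 1 liver library, with CPM on the vertical axis, 95% Wilson intervals as bars and group means as dashed lines (NC blue, MAFLD orange), and the bars at lower right give recovered reads of miR-196a-5p (solid) and miR-196b-5p (hatched). MiR-10a-5p lies between 3441 and 4713 CPM in NC livers and at 5566 CPM or more in all MAFLD livers, while miR-10b-5p spreads from 33.0 to 216 CPM within the MAFLD group.

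The gap between the groups depended on how the libraries were scaled. When CPM was computed without the reads of miR-148a-3p, miR-10a-5p stood at 12021, 9851 and 9155 in NC replicates 1, 2 and 3 and at 10987, 13571 and 11506 in MAFLD replicates 1, 2 and 3. The groups then overlapped, since NC replicate 1 lay above MAFLD replicates 1 and 3. The spread was then similar, with an SD of 1495 in NC and 1367 in MAFLD livers (n = 3 each). On that scale 14.0% of miRNAs still lay wholly higher and 7.6% wholly lower in MAFLD livers. The log2 fold change was 0.22 (adjusted p = 0.533 from limma). With median-ratio scaling the values were 5227, 4472 and 3612 in NC livers and 4355, 5852 and 4091 in MAFLD livers, and the log2 fold change was 0.10 (adjusted p = 0.822 from limma). The median of all miRNAs moved along with this, to 0.16 and 0.043. Relative to that median, miR-10a-5p differed by 0.14 with CPM as deposited and by 0.060 and 0.058 under the other scalings. Among miRNAs averaging 10 CPM or more, with CPM as deposited, the median was 0.56, and miR-10a-5p differed from it by 0.0043. NC replicate 3, the highest NC liver for CPM, decided the call. Without it the log2 fold change was 0.71 with an adjusted p of 0.0198 from limma, in a fit that called 22.8% of all miRNAs, and 19.0% as higher.

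**Figure D2:**
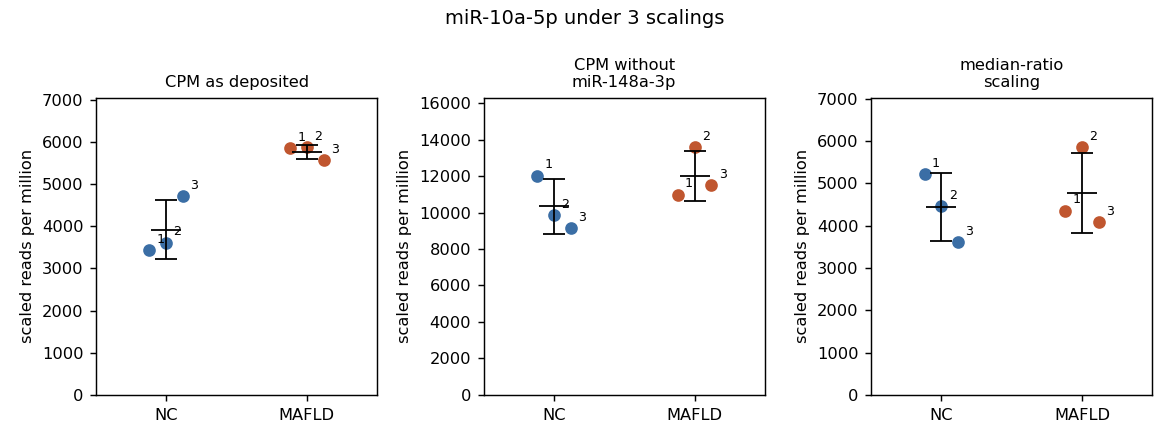
MiR-10a-5p in each library under 3 scalings, on the vertical axis in CPM or reads scaled alike, where the number beside a point is the replicate and the black line and bars are the mean and SD of 3 livers. The groups are apart with CPM as deposited and overlap in the other panels.

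The other arm of the miR-10a hairpin, miR-10a-3p, was scarce. It was read 9, 16 and 22 times in NC replicates 1, 2 and 3 (3.53, 10.2 and 16.5 CPM) and 44, 49 and 20 times in MAFLD replicates 1, 2 and 3 (16.5, 10.5 and 13.0 CPM). The groups overlapped, and NC replicate 1 was the only library below 10 CPM. MiR-10a-3p averaged 10.1 ± 6.46 CPM in NC and 13.3 ± 3.04 CPM in MAFLD livers (SD, n = 3 each), 1.33 times as much. The log2 fold change on the log2(CPM + 1) scale was 0.56, with a standard error of 0.55 and a limma adjusted p of 0.587. Without NC replicate 1 it was 0.014. The 5p arm outnumbered the 3p arm by 975, 354 and 286 in NC livers and by 354, 561 and 427 in MAFLD livers, and it was the major arm in all 6 libraries. On the log2 scale with 1 CPM added, this ratio was 8.66 ± 0.80 (SD, n = 3) in NC and 8.67 ± 0.31 (SD, n = 3) in MAFLD livers, a difference of 0.012 (two-sided exact permutation test, p = 1).

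MiR-10b-5p, which has the same seed, was far lower than its paralogue in every liver and did not follow it. NC replicates 1, 2 and 3 had 54.1, 149.7 and 119.7 CPM, while MAFLD replicates 1, 2 and 3 had 33.0, 39.5 and 216 CPM. MAFLD replicates 1 and 2 were the lowest libraries and MAFLD replicate 3 was the highest. It averaged 108 ± 48.9 and 96.1 ± 104 CPM (SD, n = 3 each), so the spread among MAFLD livers exceeded their mean. The log2 fold change was −0.58 (95% interval −1.90 to 0.73, limma adjusted p = 0.618), and the two-sided exact permutation test gave p = 0.7.

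The ratio of the paralogues therefore varied widely. MiR-10a-5p exceeded miR-10b-5p 63.6, 24.1 and 39.4 times in NC replicates 1, 2 and 3 and 177, 149 and 25.8 times in MAFLD replicates 1, 2 and 3. Since the paralogues are read from the same library, this linear ratio does not depend on the scaling. The log2 ratio with 1 CPM added to each was 5.28 ± 0.69 (SD, n = 3) in NC and 6.43 ± 1.52 (SD, n = 3) in MAFLD livers, a difference of 1.15 (two-sided exact permutation test, p = 0.3). The groups overlapped, because MAFLD replicate 3 lay among the NC livers. Without MAFLD replicate 3 the difference was 2.02, and the log2 fold change of miR-10b-5p was −1.43 (adjusted p = 0.328 from limma). Without MAFLD replicate 1 these were 0.65 and −0.096, and without MAFLD replicate 2 they were 0.78 and −0.22.

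MiR-10b-5p varied across the livers together with miR-1a-3p, a miRNA typical of muscle that stood in the muscle marker list. The relation was noticed after the values were seen. For miR-1a-3p, NC replicates 1, 2 and 3 had 49.8, 238 and 180.3 CPM, while MAFLD replicates 1, 2 and 3 had 32.6, 37.6 and 223 CPM. The same 3 libraries (NC replicates 2 and 3 and MAFLD replicate 3) were high for both, and miR-10b-5p was between 0.630 and 1.09 times miR-1a-3p in all 6. Of the 237 other miRNAs that averaged 10 CPM or more, miR-1a-3p was the most similar to miR-10b-5p (Pearson r = 0.978 over 6 libraries, which share depth and scaling). The muscle list, with 4 of 4 markers listed, summed to between 51.4 and 241 CPM in NC and between 37.1 and 229 CPM in MAFLD livers. Nearly all of it was miR-1a-3p. MiR-133a-3p, another muscle miRNA, lay between 0.637 and 4.49 CPM, miR-133b-3p was at 0 in 3 libraries, and miR-206-3p was at 0 in NC replicate 3. The part of other tissue in the level of miR-10b-5p was not tested.

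**Figure D3:**
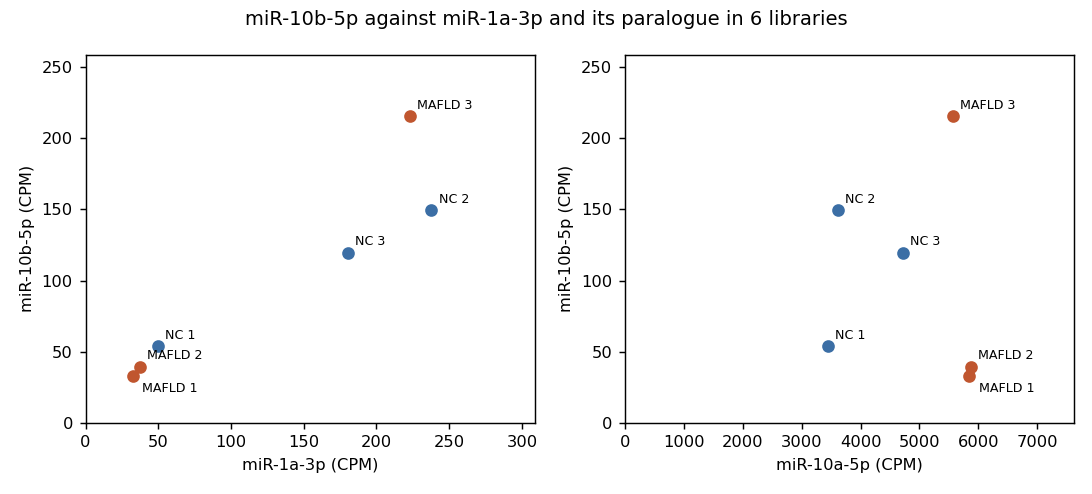
Each point is 1 library (NC blue, MAFLD orange), with miR-10b-5p in CPM on the vertical axis and miR-1a-3p (left) or miR-10a-5p (right) in CPM on the horizontal axis. The 3 libraries with 119.7 CPM or more of miR-10b-5p are those with 180.3 CPM or more of miR-1a-3p, while the level of miR-10a-5p does not order them.

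MiR-10b-3p was read once, in NC replicate 3 (0.748 CPM), and 0 times in the other 5 libraries. It was not tested, and over all libraries the 5p arm had 1137 reads against 1 of the 3p arm. With 5 libraries at 0 no ratio of these arms is interpreted.

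The miR-196 members were at the edge of detection in all livers. MiR-196a-5p was read 0, 0 and 1 times in NC replicates 1, 2 and 3 and 3, 1 and 4 times in MAFLD replicates 1, 2 and 3. MiR-196b-5p was read 0 times in each NC library and 0, 5 and 2 times in MAFLD replicates 1, 2 and 3. A count of 0, taken as 3 reads at most, allows a level of up to 1.18, 1.91 and 2.24 CPM in NC replicates 1, 2 and 3, which cover most of the MAFLD values. Pooled over the group, miR-196a-5p had 1 of 5455900 reads in NC and 8 of 8885739 reads in MAFLD libraries, a ratio of 4.91 with an exact counting interval from 0.659 to 218. MiR-196b-5p had 7 reads in the pooled MAFLD libraries, 5 of them from MAFLD replicate 2, and 0 in the pooled NC libraries, and no fold is given for it. Means of 0.782 CPM for miR-196a-5p and 0.395 CPM for miR-196b-5p kept both out of the test. With no filter on low values the adjusted p was 0.644 for each of them in limma. No difference of miR-196a-5p or miR-196b-5p between the groups passed a test at this depth.

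The miR-10 members summed to 4040.2 ± 714 CPM (SD, n = 3) on the normal diet and to 5871 ± 67.4 CPM (SD, n = 3) on the high-fat diet. The miR-196 members summed to 0.249 ± 0.432 and 2.11 ± 1.56 CPM (SD, n = 3 each). Their sum lay between 0 and 0.748 CPM in NC livers and between 1.13 and 3.91 CPM in MAFLD livers, on at most 6 reads per library. Both sums were thus wholly higher in MAFLD livers with CPM as deposited, as were 15.2% of the 501 tested miRNAs. That share is over single miRNAs averaging 1 CPM or more, so it is no match for the miR-196 sum, whose members fell below that mean. Taken singly, miR-196a-5p and miR-196b-5p each overlapped between the groups. Neither sum was tested, and the ratio of miR-196a-5p to miR-196b-5p is not interpreted, since 4 libraries had 0 reads of the latter.

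Other products of the Hox clusters were as scarce as miR-196. Of 5 such miRNAs, 2 were listed. MiR-615-3p, from the Hoxc cluster, was read 6 times in NC and 7 times in MAFLD libraries, and it differed by 0.0041 on the log2 scale, with a standard error of 0.67 and a limma adjusted p of 0.997. MiR-196a-2-3p, the other arm of the Mir196a-2 hairpin, was read 2 and 3 times and was not tested.

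MiR-99 and miR-100 resemble miR-10 in sequence, and miR-125 is made from the same clusters as they are. MiR-99a-5p averaged 5333 ± 198 CPM (SD, n = 3) on the normal diet and 7637 ± 672 CPM (SD, n = 3) on the high-fat diet, and miR-100-5p averaged 907 ± 234 and 1362 ± 259 CPM (SD, n = 3 each). Of the 8 relatives tested, 0 passed the adjusted or the unadjusted p of 0.05. Their log2 fold changes were above 0 in 7 and below 0 in 1, with a median of 0.59 beside 0.43 for all miRNAs, of which 71.3% were above 0. For miRNAs averaging 10 CPM or more the median was 0.56. MiR-99b-5p had 0.58, miR-125b-5p 0.88 and miR-125b-1-3p, the only tested relative below 0 and named after its value was seen, −0.26. MiR-10a-5p was between 0.663 and 0.865 times miR-99a-5p in the 6 libraries.

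**Figure D4:**
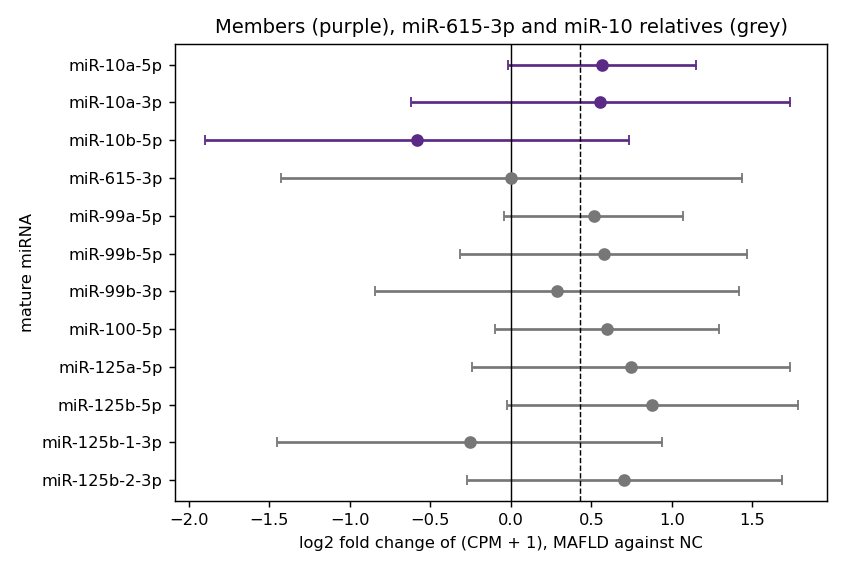
Log2 fold change of CPM + 1 in MAFLD against NC livers (horizontal axis) with 95% intervals from limma, for the 3 tested members (purple) and for miR-615-3p and the 8 tested relatives (grey). The solid line is 0 and the dashed line the median of all 501 miRNAs, and the interval of each miRNA includes 0.

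The miRNAs most similar to miR-10a-5p across the 6 libraries, among 237 that averaged 10 CPM or more, were miR-15a-5p (Pearson r = 0.987), miR-101b-3p (0.982), miR-101c and miR-101a-3p (both 0.978) and miR-450a-5p (0.973). All libraries share one scaling to their total, and miR-101a-3p and miR-101c have nearly the same reads. The endothelial list (both arms of miR-126a, 2 of 2 listed and neither at 0) also moved with miR-10a-5p. With CPM as deposited it summed to between 4709.5 and 6587 in NC livers and between 7659 and 10155 in MAFLD livers, without overlap. On that scale 15.2% of the 501 tested miRNAs lay wholly higher in MAFLD livers. The list was not summed under the other scalings. MiR-10a-5p was between 0.606 and 0.792 times miR-126a-3p in all 6 libraries. In bulk liver a change in the number of cells of a type and a change in RNA per cell cannot be told apart, and the part of endothelial cells was not tested. For miR-196a-5p they were miR-21c (r = 0.949), miR-1291 (0.949), miR-100-5p (0.941), miR-12204-5p (0.935) and miR-21b (0.926), but it had at most 4 reads in a library.

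The sums of the remaining cell type lists overlapped between the groups, and their part in the levels of the members was not tested. The stellate and mesenchymal list summed to between 12623 and 30049 CPM in NC and between 19785 and 26960.0 CPM in MAFLD livers, and the immune list to between 1616 and 3061 CPM and between 2223 and 3314 CPM. The biliary and other epithelial list lay between 195.6 and 867 CPM in NC and between 249 and 437 CPM in MAFLD livers, and the erythroid list between 599 and 1202 CPM and between 427 and 982 CPM.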

How the data were processed

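Liver RNA of 3 NC and 3 MAFLD samples was treated to remove end and base modifications that block library construction, and inserts of 14 to 40 nt were sequenced for 50 cycles on a NextSeq 500. The authors deposited CPM values per mature miRNA, scaled to the reads on all listed miRNAs, and the submitters' processing notes name FastQC, cutadapt, Bowtie, edgeR and GRCm38 without versions or order. The labels' protocols also describe HepG2 cells, but name each sample as mouse liver.

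Reads were recovered by dividing by the smallest value above 0 of each library, and 100% of values came within 0.02 of a whole number. Groups come from the sample titles. The 501 miRNAs averaging 1 CPM or more entered limma 3.58.1 (eBayes with trend, R 4.3.3) on log2(CPM + 1), which understates fold changes of scarce miRNAs. Benjamini-Hochberg adjustment was used, with a threshold of 0.05. Alternatives were other pseudocounts, filters and scalings, no trend, the replicate block, each library left out, and edgeR 4.0.16 (quasi-likelihood, TMM) and DESeq2 1.42.0 on recovered reads. Exact permutation tests used scipy 1.17.1. The methods were tested on simulated data. No change between the groups was set for miR-148a-3p there, so that test cannot show how the methods handle its uneven share. The named miRNAs are the members, the listed products of the Hox clusters, the leading relatives and the 5 most similar to the most abundant member of each family. Members and lists were chosen with earlier results of these data known. MiR-10b-5p was compared with miR-1a-3p after its values were seen. The labels do not say that each replicate is a separate mouse, so p-values measure only the spread between these samples. A 3′ UTR is the longest after a stop codon per gene in GENCODE M21. Hairpin and mature sequences come from RefSeq. Counts of seed matches within Hox genes are not reported here.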

Additional observations from a re-analysis of the deposited data

How the results depend on the processing

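MiR-10a-5p was higher, miR-10a-3p higher and miR-10b-5p lower in MAFLD livers in all 16 alternatives of each, with log2 fold changes from 0.092 to 0.71, from 0.014 to 0.99 and from −1.43 to −0.096. Their adjusted p ran from 0.0198 to 0.892, from 0.190 to 0.993 and from 0.328 to 0.955. The number of members past the adjusted p was 0, except without NC replicate 3, where it was 1 (miR-10a-5p, 0.71). Leaving out 1 library gave 0.48 to 0.71 for miR-10a-5p and 0 to 1 members past the adjusted p. At an unadjusted p under 0.05, added after the values were seen, the number was 0. With the replicate block the log2 fold change of miR-10a-5p was 0.57 (adjusted p = 0.365) and no call changed. Over all miRNAs tested, 1 passed the adjusted p in the main comparison and with edgeR, 28 with DESeq2, 2 with median-ratio scaling and also without miR-148a-3p, 5 with the block, 11 with no filter, 0 without the trend and 114 without NC replicate 3. Deviations of same-numbered livers correlated between −0.046 and 0.012, and those of other-numbered livers between −0.16 and 0.13. With 3 livers per group these correlations cannot show whether same-numbered livers were paired. Filtering at 10 CPM gave no value for miR-10b-3p or the miR-196 members.

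The log2 ratio of the summed miR-10 level was 0.54, but 0.20 without miR-148a-3p and 0.087 after median-ratio scaling. That of miR-196 was 3.08, and 2.27 to 3.38 when a library other than NC replicate 3 was left out. Without NC replicate 3, which held the only NC read, no ratio can be had. Without a test, the log2 difference of miR-10b-3p was −0.27, of miR-196a-5p 0.80 and of miR-196b-5p 0.75. A pseudocount of 0.1 CPM made these −1.03, 2.31 and 2.45. MiR-196b-5p also moved to 0.20 with 5 CPM and to 1.23 without miR-148a-3p. These values rest on 0 to 5 reads per library.

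The difference between MAFLD and NC livers in some arm and paralogue log2 ratios changed sign. With a pseudocount of 0.1 CPM the difference of miR-10a-5p to miR-10a-3p went from 0.012 to −0.063, of miR-10b-5p to miR-10b-3p from −0.31 to 0.43 and of miR-196a-5p to miR-196b-5p from 0.054 to −0.14. Leaving out 1 library gave −0.28 to 0.47, −1.16 to 0.17 and −0.33 to 0.60 for these. For miR-10a-5p to miR-10b-5p it gave 0.65 to 2.02. The ratios of miR-10b-5p to miR-10b-3p and of miR-196a-5p to miR-196b-5p are set largely by the CPM added, because most libraries had 0 reads of the second miRNA. The cause of the other reversals was not tested.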

Other observations

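After miR-1a-3p, the miRNA most similar to miR-10b-5p over the 6 libraries was miR-6997-5p (Pearson r = 0.902), for which NC replicates 1, 2 and 3 had 6.28, 26.1 and 11.97 CPM and MAFLD replicates 1, 2 and 3 had 3.00, 3.41 and 13.0 CPM. The next were miR-3535 (r = 0.809), miR-7649-5p (0.766) and miR-3068-3p (0.744). They were looked up after the values of miR-10b-5p were seen, and a high correlation over 6 libraries is a description only.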
